A study of Mus musculus with 13 samples.

Results

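The Cyp3a cytochromes P450 were followed in the liver of diabetic and non-diabetic mice. The family was defined as 7 genes, Cyp3a11, Cyp3a13, Cyp3a16, Cyp3a25, Cyp3a41a, Cyp3a44 and Cyp3a59, and a gene was measured where the platform annotation gave a probe set that symbol and no other. This held for 5 of the 7, Cyp3a11, Cyp3a13, Cyp3a16, Cyp3a25 and Cyp3a44, with 1 probe set each, among 19938 named genes in all. Cyp3a41a and Cyp3a59 had no probe set of their own and were read only through 3 probe sets that several Cyp3a genes share. The STZ group was 6 male wild-type C57BL/6N mice given streptozotocin, an alkylating glucose analogue that kills pancreatic beta cells, by intraperitoneal injection at 65 mg/kg on 5 consecutive days. The control group was 7 male wild-type C57BL/6N mice that received citrate buffer without the drug, although the series text describes controls by a standard diet. Mice of both groups were 10 to 16 weeks old at injection, livers were taken 9 to 11 weeks later, and the age is given as 5 to 6 months. Total liver RNA of each mouse was hybridised to 1 Affymetrix array, and values are log2 intensities after robust multi-array average (RMA) normalisation by the authors. STZ reaches every tissue of the animal, so the comparison is of treated with mock-treated mice and not of insulin levels alone.

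Cytochromes P450 of family 3A sit in the membrane of the endoplasmic reticulum, take electrons from P450 oxidoreductase and cytochrome b5, and oxidise a wide range of drugs, steroids such as testosterone, and bile acids. Their hepatic genes are switched on by the nuclear receptors PXR (Nr1i2) and CAR (Nr1i3), which pair with RXR, on a basal level set by hepatocyte factors such as HNF4A. In adult mouse liver Cyp3a11 is the major drug-inducible member and is made in both sexes, as are Cyp3a13 and Cyp3a25, while Cyp3a41 and Cyp3a44 are female-predominant and answer to the sex-specific pattern of growth hormone secretion. Cyp3a16 is known from the fetal and young liver.

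In RefSeq all 9 protein-coding Cyp3a genes lie on mouse chromosome 5, in the order Cyp3a13, Cyp3a57, Cyp3a16, Cyp3a41b, Cyp3a41a, Cyp3a44, Cyp3a11, Cyp3a25 and Cyp3a59. Cyp3a13 lies apart from the others, between the Pilrb genes and Gjc3. Promoters are shown because the genes moved in the same direction and their upstream sequences show how the members are related. All 7 genes, and also Cyp3a41b and Cyp3a57, were found in the RefSeq promoter table of build GRCm38.p6, with 250 bases before and 50 bases after the gene start. Capitals mark the nuclear receptor half-site AGGTCA, or TGACCT on the other strand, and the HNF4-type site CAAAGTCCA, or TGGACTTTG on the other strand, and these matches did not overlap each other. The sequences below run 5′ to 3′ on the gene's strand, which is the minus strand for all 5, at chr5:145805825-145806124 for Cyp3a44, chr5:145720087-145720386 for Cyp3a41a, chr5:145879805-145880104 for Cyp3a11, chr5:146009569-146009868 for Cyp3a25 and chr5:137921570-137921869 for Cyp3a13.
Cyp3a44: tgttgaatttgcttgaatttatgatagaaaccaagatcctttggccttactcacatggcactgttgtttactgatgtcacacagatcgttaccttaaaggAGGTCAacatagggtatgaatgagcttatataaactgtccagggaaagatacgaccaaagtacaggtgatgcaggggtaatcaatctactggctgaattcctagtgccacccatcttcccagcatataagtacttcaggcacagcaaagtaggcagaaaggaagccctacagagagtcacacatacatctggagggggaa
Cyp3a41a: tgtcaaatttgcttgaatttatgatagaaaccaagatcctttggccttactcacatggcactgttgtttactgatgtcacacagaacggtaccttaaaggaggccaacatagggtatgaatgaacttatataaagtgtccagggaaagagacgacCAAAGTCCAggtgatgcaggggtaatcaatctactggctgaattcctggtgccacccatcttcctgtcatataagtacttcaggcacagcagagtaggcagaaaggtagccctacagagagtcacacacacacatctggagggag
Cyp3a11: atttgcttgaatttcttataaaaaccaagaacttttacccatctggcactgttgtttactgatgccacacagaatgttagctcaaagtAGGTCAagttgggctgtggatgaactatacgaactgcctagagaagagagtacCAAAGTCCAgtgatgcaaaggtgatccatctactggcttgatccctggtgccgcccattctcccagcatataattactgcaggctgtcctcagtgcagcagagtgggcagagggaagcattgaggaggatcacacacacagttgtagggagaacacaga
Cyp3a25: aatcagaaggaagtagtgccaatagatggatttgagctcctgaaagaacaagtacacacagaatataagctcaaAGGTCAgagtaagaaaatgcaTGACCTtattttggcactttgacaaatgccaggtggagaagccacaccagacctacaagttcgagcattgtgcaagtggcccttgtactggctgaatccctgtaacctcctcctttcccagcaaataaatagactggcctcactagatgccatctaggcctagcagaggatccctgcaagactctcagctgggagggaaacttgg
Cyp3a13: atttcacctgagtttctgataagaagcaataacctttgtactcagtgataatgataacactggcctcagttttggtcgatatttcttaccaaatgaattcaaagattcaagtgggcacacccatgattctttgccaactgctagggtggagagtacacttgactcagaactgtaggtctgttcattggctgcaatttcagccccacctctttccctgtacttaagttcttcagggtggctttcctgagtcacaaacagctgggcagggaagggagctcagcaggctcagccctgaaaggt

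The promoters formed 2 sets and a single gene. Cyp3a41a and Cyp3a41b were identical at 98.3% of aligned positions, Cyp3a41a and Cyp3a44 at 93.7%, and Cyp3a16 and Cyp3a44 at 95.3%. Cyp3a11 was 73.8% to 76.7% identical to these 4. Cyp3a25, Cyp3a57 and Cyp3a59 were 90.3% to 96.3% identical to each other and 56.6% to 59.7% to the first set. Cyp3a13 was 54.4% to 59.1% identical to all others. The identity that unrelated promoters reach in such an alignment was not computed, so the values under 60% are no measure of relatedness. The HNF4-type site CAAAGTCCA stood 109 bases before the start of Cyp3a11, 99 before Cyp3a16 and 95 before Cyp3a41a, and was present in 0.477% of 27025 promoters, counted on either strand. At the same place, 95 bases before its start, Cyp3a44 carried the substitution C7A, counted from 1 at the first base of CAAAGTCCA. The half-site AGGTCA, present in 16.0% of promoters, occurred 1 time each in Cyp3a11 and Cyp3a44 and 2 times each in Cyp3a25 and Cyp3a59. Both motifs were absent from the window of Cyp3a13. The second half-site AGTTCA, or TGAACT on the other strand, was in Cyp3a11 and Cyp3a41a and in 14.0% of promoters. The STAT5-type site TTCNNNGAA, which reads the same on both strands and was in 8.47% of promoters, was in none of these 9 windows. Such matches describe letters in a window of 300 bases and were not tested as binding sites. The motifs were chosen after these sequences were seen, and the promoters that carry CAAAGTCCA are related to each other. The shares over all promoters are therefore no evidence of enrichment.

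All 5 Cyp3a genes with a probe set of their own were higher in STZ livers, by 0.23 to 0.76 on the log2 scale (1.18-fold to 1.69-fold), and none was lower. The call was an adjusted p under 0.05 in limma, a moderated linear model fitted to all 19938 genes, and 5.09% of all genes passed it in the same direction, 4.04% passed in the other and 9.12% in either. Without STZ replicate 5, which stood apart in several genes described below, 4 of the 5 passed, Cyp3a11 being lost. The median difference of the 5 was 0.48, against -0.01 over all genes. That median is the value of Cyp3a16, whose signal was near the bottom of the array. In an exact rank-sum test 2 of the 5 passed, and 1088 of all 19938 genes passed in either direction. The largest difference was that of the female-predominant Cyp3a44 and the smallest that of the drug-inducible Cyp3a11. The 3 shared probe sets, which alone report on Cyp3a41a and Cyp3a59, were also higher, where 4.77% of 21559 genes and shared probe sets passed in that direction. Whole liver was measured, so a change in the share of hepatocytes and a change in RNA per hepatocyte cannot be told apart. Probes of such close paralogs can cross-hybridise, and how much of each value comes from a neighbour was not tested.

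**Figure D1:**
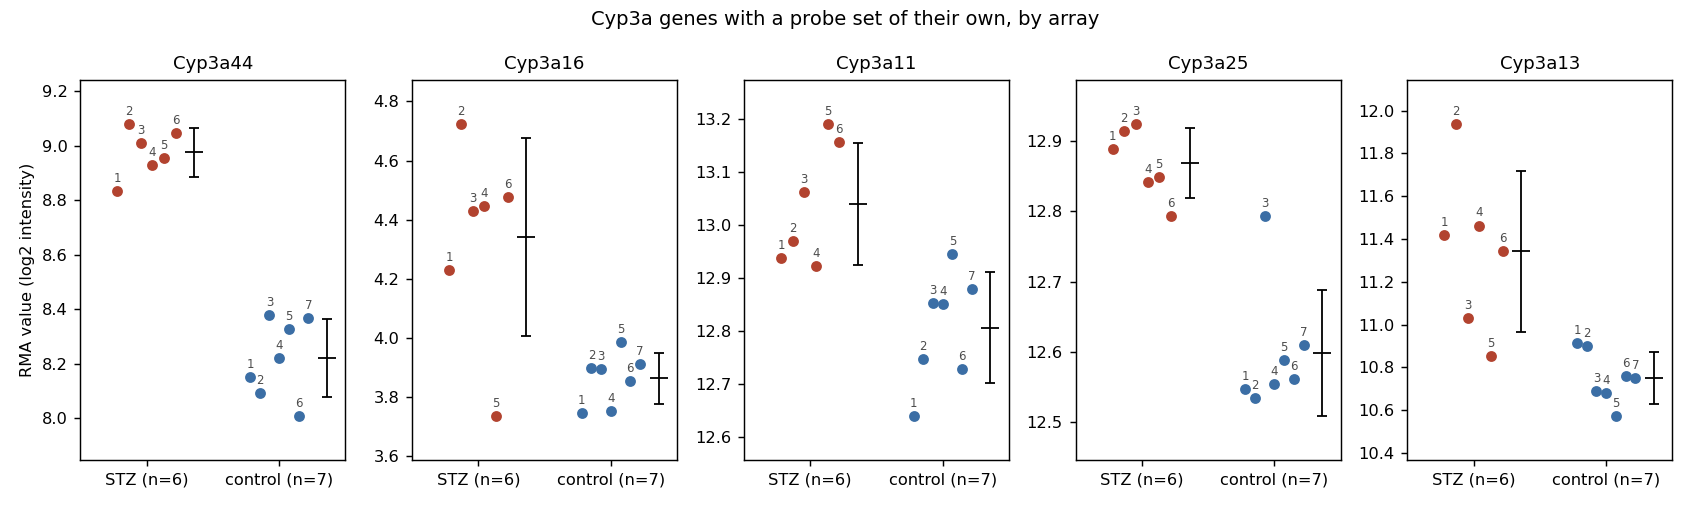
RMA values (log2 intensity) of the 5 Cyp3a genes with a probe set of their own, 1 point per liver numbered by replicate, STZ (n = 6) left of control (n = 7), with mean and SD as black bars. The groups are separate for Cyp3a44 and touch or overlap for the other 4 genes, and each panel has its own axis range.

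Cyp3a44, a female-predominant steroid-metabolising P450, showed the clearest separation. Its values had a lowest of 8.84, a median of 8.98 and a highest of 9.08 in STZ livers, against a lowest of 8.01, a median of 8.22 and a highest of 8.38 in control livers. The 6 STZ livers all lay above the 7 control livers, as did those of 2.3% of all genes, while 1.56% of genes had all STZ livers below all controls. The means were 8.98 ± 0.09 in STZ livers and 8.22 ± 0.14 in control livers (SD, n = 6 and 7). The difference was 0.76 ± 0.07 (SE of the fit), or 1.69-fold with a 95% interval of 1.53 to 1.86, at an adjusted p of 3.88e-06 in limma. The range over the 6 STZ livers was narrow beside the difference, and leaving out any 1 of the 13 livers gave 0.72 to 0.78.

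Cyp3a41a, the other female-predominant member, could be seen only together with its near-identical copy Cyp3a41b and with Cyp3a44. The probe set that these 3 genes share had a lowest of 11.23, a median of 11.39 and a highest of 12.11 in STZ livers, against 10.48, 10.63 and 10.82 in control livers. All STZ livers were above all control livers, as for 2.25% of the 21559 genes and shared probe sets. STZ replicate 2 was far above the other STZ livers. The difference of this probe set was 0.87 ± 0.11 (1.83-fold, 95% interval 1.54 to 2.16) at an adjusted p of 0.000222 in limma over the 21559 genes and shared probe sets. A second probe set, which the annotation assigns to the same 3 genes and to Cyp3a11, gave 0.88 ± 0.12 (1.84-fold, 1.55 to 2.18, adjusted p = 0.000212). Both groups were separate there as well, with 10.96 to 11.83 in STZ livers and 10.22 to 10.53 in control livers. The 2 probe sets followed each other from array to array, and STZ replicate 2 was the highest in both. Without STZ replicate 2 the differences were 0.75 and 0.76, and both passed. Both probe sets were bright, with means above those of 96.6% and 95.8% of genes. In control livers their Pearson's r with Cyp3a11 was 0.908 and 0.937, and with Cyp3a44 it was 0.845 and 0.832. In STZ livers r was -0.331 and -0.289 with Cyp3a11, and 0.590 and 0.608 with Cyp3a44. How much of these signals came from Cyp3a41a, Cyp3a41b, Cyp3a44 or Cyp3a11 was not tested.

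**Figure D2:**
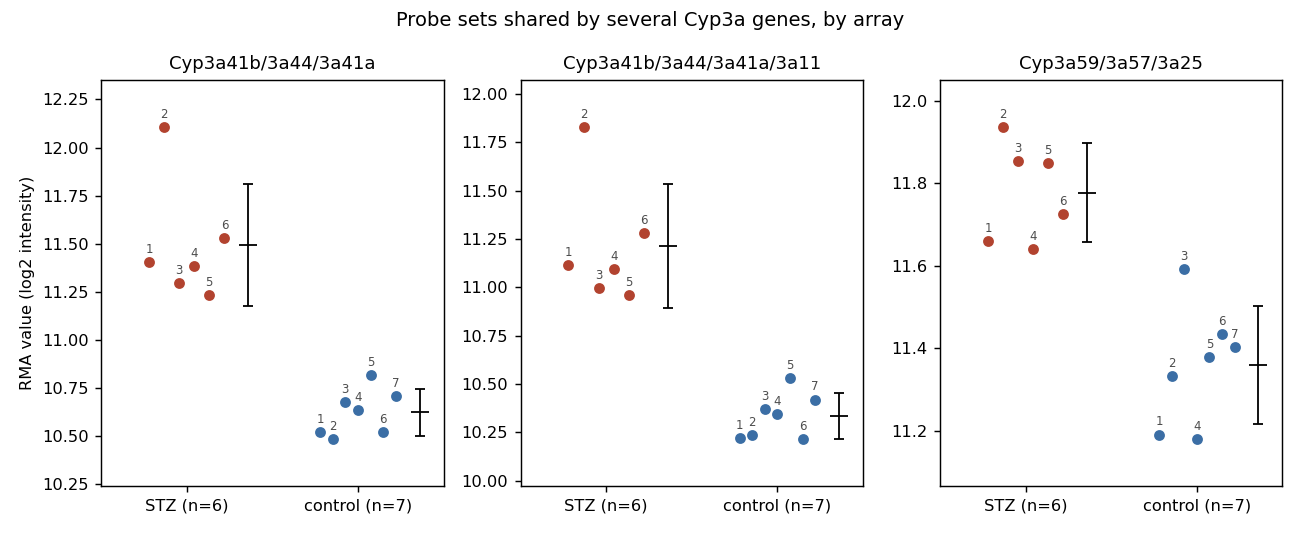
RMA values (log2 intensity) of the 3 probe sets shared by several Cyp3a genes, 1 point per liver numbered by replicate, STZ (n = 6) left of control (n = 7), with mean and SD as black bars. All 6 STZ livers lie above all 7 control livers in each panel, as for 2.25% of the 21559 genes and shared probe sets. STZ replicate 2 stands apart in the 2 probe sets that name Cyp3a41a.

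Cyp3a16, the P450 known from fetal and young liver, gave a signal near the bottom of the array. Its mean was above that of only 5.60% of genes, a range in which arrays compress differences and in which no detection call was available. The values were 3.74 at the lowest, 4.44 at the median and 4.72 at the highest in STZ livers, against 3.75, 3.89 and 3.98 in control livers. STZ replicates 1, 2, 3, 4 and 6 lay above all controls, and STZ replicate 5 lay just below the lowest control. The difference was 0.48 ± 0.11 (1.39-fold, 95% interval 1.18 to 1.65) and passed in limma (adjusted p = 0.0137). It was 0.60 when STZ replicate 5 was left out and 0.40 without STZ replicate 2, and passed in both. In an exact rank-sum test it did not pass (adjusted p = 0.262).

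Cyp3a11, the main drug-inducible enzyme of the family, was among the brightest genes of the array, with a mean above that of 99.7% of genes. In STZ livers its values had a lowest of 12.92, a median of 13.02 and a highest of 13.19, against 12.64, 12.85 and 12.95 in control livers. STZ replicates 2, 3, 5 and 6 lay above every control, while replicates 1 and 4 lay below control replicate 5. The difference was 0.23 ± 0.06 (1.18-fold, 95% interval 1.07 to 1.29) and passed in limma with an adjusted p of 0.0273. The call did not hold in 5 of the 13 leave-one-out fits, those without control replicates 1, 2 and 6 and STZ replicates 5 and 6 (highest adjusted p = 0.0690).

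Cyp3a25, a constitutive liver member of the family, was similarly bright (above 99.6% of genes) and moved by a similar amount. Its lowest, median and highest values were 12.79, 12.87 and 12.93 in STZ livers, against 12.53, 12.56 and 12.79 in control livers. The groups touched at 1 point, where STZ replicate 6 and control replicate 3 had the same value. The 6 other controls reached no higher than control replicate 7 at 12.61. The difference was 0.27 ± 0.05 (1.21-fold, 95% interval 1.12 to 1.30) with an adjusted p of 0.00288 in limma. Leaving out any 1 liver gave 0.26 to 0.30, the highest without control replicate 3.

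Cyp3a59 shares its only probe set with Cyp3a25 and Cyp3a57. That probe set had 11.64, 11.79 and 11.94 as lowest, median and highest value in STZ livers, against 11.18, 11.38 and 11.59 in control livers. All STZ livers lay above all control livers, as for 2.25% of the 21559 genes and shared probe sets. Control replicate 3 was again the highest control. The difference was 0.42 ± 0.07 (1.34-fold, 95% interval 0.27 to 0.57 on the log2 scale, adjusted p = 0.00175 in limma over the 21559 genes and shared probe sets). Cyp3a57, which is not among the 7 genes but has a probe set of its own, lay at 3.91 to 4.15 in STZ livers and 3.70 to 4.00 in control livers, above only 3.70% of genes. Its difference of 0.19 ± 0.06 passed (adjusted p = 0.0384 in limma), and the call was lost in 10 of 13 fits that left out 1 liver. No value here belongs to Cyp3a59 alone.

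Cyp3a13, the member whose gene lies outside the cluster, had the widest spread among the STZ livers. Its values were 10.86 at the lowest, 11.38 at the median and 11.94 at the highest in STZ livers, against 10.57, 10.75 and 10.91 in control livers. STZ replicate 2 was the highest and STZ replicate 5 the lowest, and replicate 5 lay within the range of the controls. The SD was 0.38 in STZ livers and 0.12 in control livers (n = 6 and 7). The difference was 0.59 ± 0.13 (1.51-fold, 95% interval 1.25 to 1.82), which passed in limma (adjusted p = 0.00767). It was 0.47 without STZ replicate 2 and 0.69 without STZ replicate 5, and passed in both.

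**Figure D3:**
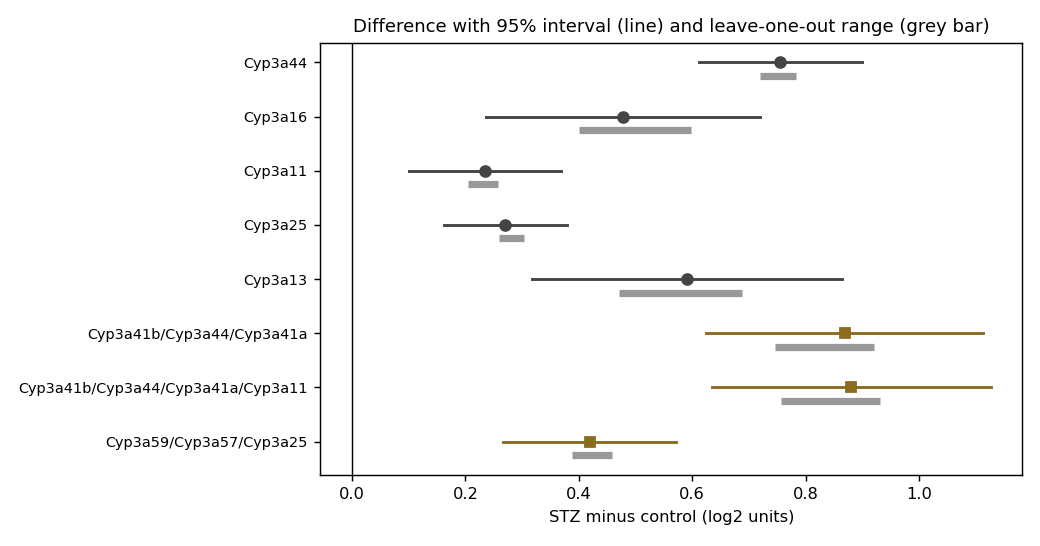
STZ minus control difference (log2 units) of each Cyp3a gene with its own probe set (circles) and each shared probe set (squares), with the 95% interval of the limma fit as a line and the range over the 13 fits that left out 1 liver as a grey bar. All intervals lie above 0, from 0.10 at the lower end for Cyp3a11 to 1.13 at the upper end for the probe set shared by Cyp3a41b, Cyp3a44, Cyp3a41a and Cyp3a11.

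Whether the genes differed from each other in their response was tested within arrays. For each of the 10 pairs of the 5 genes, the log2 difference between the genes was taken in every liver and compared between the groups by an exact 2-sided permutation over all 1716 splits of the livers, with p values adjusted over the 10 pairs. Cyp3a44 rose more than Cyp3a11, by 0.52 ± 0.06 log2 units (95% interval 0.39 to 0.65, adjusted exact p = 0.00291, beyond all controls in 6 of 6 STZ livers). It also rose more than Cyp3a25, by 0.49 ± 0.06 (0.36 to 0.61, adjusted exact p = 0.00291, 6 of 6). The unadjusted exact p of both pairs, 0.000583, was the smallest that the splits can give. Cyp3a44 exceeded Cyp3a16 by 0.28 (0.00250 to 0.55, adjusted exact p = 0.0524), which did not pass, and the other 7 pairs did not pass either. Leaving out 1 liver moved that pair between 0.16 (without STZ replicate 5) and 0.33, and without STZ replicate 2 it passed (0.33, adjusted exact p = 0.00842), with Cyp3a16 near the bottom of the intensity scale. For Cyp3a25 against Cyp3a11 the difference was 0.04, with an interval from -0.12 to 0.19. For Cyp3a44 against Cyp3a13 the interval was wide, from -0.20 to 0.53. Cyp3a11 and Cyp3a25 are near the top of the intensity scale, and the part of that in their smaller differences was not tested.

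**Figure D4:**
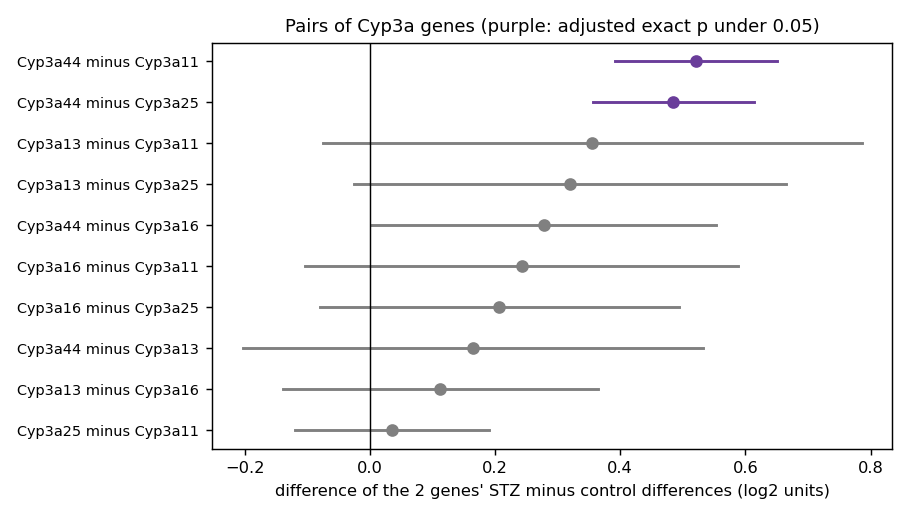
Difference between the STZ minus control differences of 2 Cyp3a genes (log2 units) for the 10 pairs of measured genes, with 95% intervals from the pooled spread of the within-array differences. The 2 purple pairs, Cyp3a44 against Cyp3a11 and against Cyp3a25, passed at an adjusted exact p under 0.05, and the 8 grey pairs did not.

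The STZ livers were not alike, and 2 of them set much of the spread. STZ replicate 5 had the lowest STZ value for Cyp3a13, Cyp3a16 and both probe sets that name Cyp3a41a, but the highest value for Cyp3a11. In the same liver the male-specific steroid dehydrogenase gene Hsd3b5 was 10.31, against 4.71 to 5.03 in the other 5 STZ livers and 11.14 to 12.13 in control livers. The female-predominant P450 gene Cyp2b9 was 9.40 in that liver, against 12.81 to 13.01 in the other 5 STZ livers and 5.01 to 8.64 in control livers. Cyp3a44, also female-predominant, did not set that liver apart, since its value there was 8.95 against an STZ median of 8.98. Without STZ replicate 5, 6 of the 10 pairs passed in place of 2, the 4 added being Cyp3a13 and Cyp3a16, each against Cyp3a11 and Cyp3a25. That liver was singled out by its values for Cyp3a13, Cyp3a16 and Cyp3a11, and its removal widens these pairs by construction, so the 4 are a description and no further result. STZ replicate 2 had the highest value for Cyp3a13, Cyp3a16, Cyp3a44 and the 3 shared probe sets. The CAR gene Nr1i3 was also highest there, at 11.23 against 10.13 to 10.75 in the other 5 STZ livers. The CAR target gene Cyp2b10 was not, at 10.80 there against 9.41 to 11.32 in the other 5 STZ livers. A link of Nr1i3 to the Cyp3a values of that liver was not tested.

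The genes whose variation among livers of 1 group was most like that of each Cyp3a gene were listed by Pearson's r of values centred on the group mean, over the 13 livers. The highest were Itih4 for Cyp3a13 (r = 0.962), Klhl34 for Cyp3a44 (0.957), Crym for Cyp3a16 (0.920), Olfr1252 for Cyp3a11 (0.898) and Zfp790 for Cyp3a25 (0.805). Itih4, an inter-alpha-trypsin inhibitor heavy chain of plasma, was 0.25 higher in STZ livers but did not pass (adjusted p = 0.0650 in limma). Of the 15 genes listed, 3 for each Cyp3a gene, 7 were dimmer than the median gene, among them all 3 for Cyp3a44 and the olfactory receptor genes Olfr1252, Olfr521 and Olfr1111. These were the highest of all named genes over 13 livers and carry no test. Of 8 genes beside the Cyp3a genes on the chromosome, 6 were measured and none of these passed, and the side after the cluster, with Gm5565 and Gm6309, gave no value. Zscan25 (0.15 ± 0.07) and Zfp655 (-0.05 ± 0.09) lie before the cluster, Pilrb1 (0.22 ± 0.10) and Pilrb2 (0.20 ± 0.11) before Cyp3a13, and Gjc3 (0.13 ± 0.08) and Azgp1 (0.04 ± 0.05) after it. Their adjusted p was 0.237 to 0.819 in limma.

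Among P450 electron donors and partners, 0 of 6 measured genes were higher and 3 lower, with a median difference of -0.22, where 5.09% of all genes were higher and 4.04% lower. The progesterone receptor membrane component Pgrmc2, a heme-binding P450 partner, lay at 7.77 to 8.31 in STZ livers and 8.45 to 8.90 in control livers (-0.74 ± 0.09, adjusted p = 8.05e-05 in limma). Cytochrome b5 reductase Cyb5r3 (-0.42 ± 0.07, adjusted p = 0.00143) and the outer mitochondrial cytochrome b5 Cyb5b (-0.42 ± 0.09, 0.00681) also fell in limma. Each of these 3 genes was below all controls in 6 of 6 STZ livers, as were 1.56% of all genes. Cyb5a, the microsomal cytochrome b5, was 0.12 ± 0.05 (95% interval 0.01 to 0.23) and did not pass (adjusted p = 0.185), with 4 of 6 STZ livers above all controls. The oxidoreductase gene Por was not analysed here.

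Of 20 measured genes in the list of Cyp3a transcription regulators, 1 was higher, which is the share found over all genes (5.09%), and 3 were lower, with a median difference of -0.01. The receptors themselves did not pass: Nr1i2 (PXR) was 10.10 ± 0.19 in STZ livers and 9.91 ± 0.24 in control livers, a difference of 0.19 ± 0.11 with an adjusted p of 0.354 in limma. Nr1i3 (CAR) was 10.49 ± 0.43 in STZ livers and 10.30 ± 0.28 in control livers, a difference of 0.19 ± 0.17 (adjusted p = 0.591). Hnf4a was 0.15 ± 0.06 higher and did not pass (0.138). The coactivator Ppargc1a rose by 0.91 ± 0.17 (adjusted p = 0.00291). The hepatocyte factor Cebpa (-0.58 ± 0.11, 0.00195), the bile acid receptor Nr1h4 (-0.39 ± 0.09, 0.00722) and the glucocorticoid receptor Nr3c1 (-0.23 ± 0.06, 0.0298) fell, the last with a call that was lost in 7 of 13 fits leaving out 1 liver.

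Among other genes that PXR and CAR are known to induce, more were higher than lower, and the rest did not pass in either direction. Of 23 measured, 11 were higher and 2 lower, with a median difference of 0.26, against 5.09% higher, 4.04% lower and a median of -0.01 over all genes. Cyp2b10, the classic CAR target, rose by 3.83 ± 0.30 (adjusted p = 9.84e-07 in limma), the organic anion transporter Slco1a4 by 1.89 ± 0.20 (1.83e-05) and the efflux pump Abcc4 by 1.11 ± 0.20 (0.00204). Thrsp, a lipogenic regulator that is also on the list, was -2.36 ± 0.33 (0.000261). Female-predominant genes outside the Cyp3a family were higher for 13 of 17 with none lower, and their median was 1.41, while Cyp3a44 rose by 0.76. Cyp2b10 is counted in this list and in that of PXR and CAR targets, and Cux2 in this list and in the growth hormone list below. Of 16 male-predominant genes 14 fell and 0 rose, at a median of -1.56. These lists were drawn up with earlier results of these data known, and their counts are no independent evidence of a direction.

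Growth hormone signalling, on which the female-predominant Cyp3a genes are known to depend, had 3 of 16 genes higher and 3 lower, with a median of 0.10, beside the same 5.09% and 4.04% of all genes. The growth hormone receptor Ghr fell by 0.57 on the log2 scale (SE 0.10, adjusted p = 0.00177 in limma), and the male-biased repressor Bcl6 fell by 1.37 (SE 0.33, 0.0141). Igfals fell by 0.43 (SE 0.12, adjusted p = 0.0253 in limma), a call lost in 4 of 13 fits leaving out 1 liver. Igf1 (-0.03, 0.845), Socs2 (0.26, 0.594) and Cish (0.27, 0.732) did not pass. The Bcl6 call was lost with trend and robust variance in limma (adjusted p = 0.0535) and in the exact rank-sum test (0.0874). Stat3 rose by 0.64 ± 0.11 (0.00170), Socs3 by 0.46 ± 0.10 (0.00758) and the female-specific factor Cux2 by 0.66 ± 0.19 (0.0368). The Cux2 call was lost in 10 of 13 fits leaving out 1 liver. With all probe sets of the gene averaged, Socs3 was 0.24 and did not pass (adjusted p = 0.0651).

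**Figure D5:**
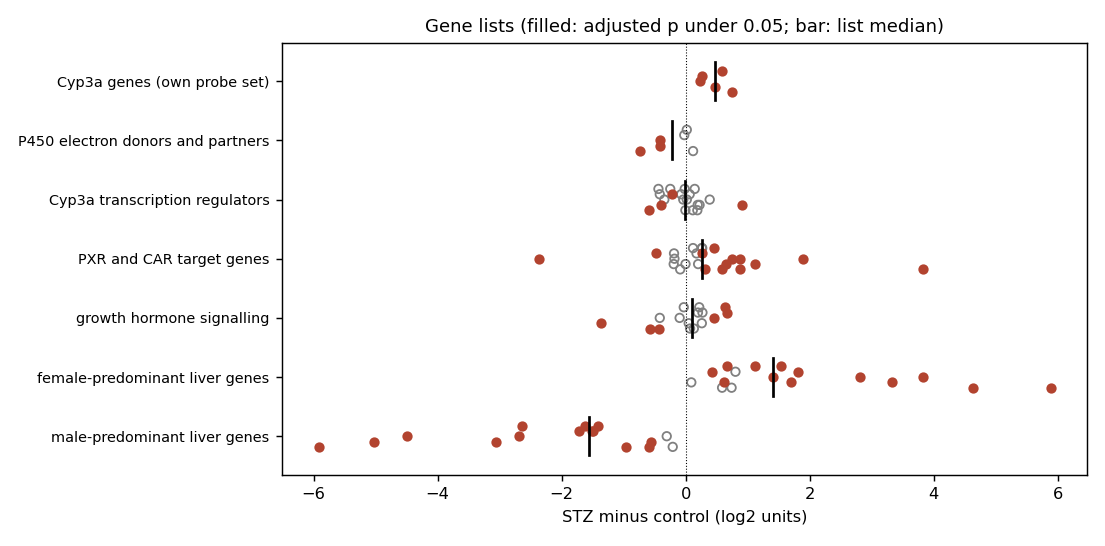
STZ minus control differences (log2 units) of single genes in the Cyp3a family and 6 gene lists, 1 point per gene, filled where the adjusted p was under 0.05, with the list median as a black bar. The 5 Cyp3a genes lie between 0.23 and 0.76, while the electron donors have no gene that passed above 0.

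Liver and male sex, as labelled, were seen on the arrays, and markers of some other cell types moved with the groups. Hepatocyte markers were bright in every liver, with Alb at 13.56 to 13.70 in STZ livers and 13.64 to 13.68 in control livers and a summed linear intensity of 65243 to 67489 in STZ livers and 65136 to 68555 in control livers. Of 7 hepatocyte markers Cps1 rose (0.16, adjusted p = 0.0307 in limma), and Apoa1 (-0.23, 0.0158) and Ttr (-0.18, 0.0402) fell, with a list median of -0.02. Over all genes 5.09% were higher and 4.04% lower. The Ttr call was lost in 11 of 13 fits leaving out 1 liver, and the Cps1 call in 5 of 13. Xist was at 4.23 to 4.44 in STZ livers and the Y-linked genes Eif2s3y, Kdm5d and Uty at 7.10 to 9.04, which fits male mice. Kupffer cell markers were higher for 4 of 7, beside the same 5.09% higher and 4.04% lower over all genes. Their summed linear intensity was 4193 to 6777 in STZ livers and 3812 to 5002 in control livers. The calls of C1qa, Clec4f and Vsig4 were lost in 6, 4 and 1 of 13 fits leaving out 1 liver. Beside the same shares, stellate cell markers were higher for 1 and lower for 1 of 6. Their sums were 5068 to 6269 in STZ livers and 4595 to 4842 in control livers. Dcn, the brightest stellate marker, rose (0.35, adjusted p = 0.00182 in limma), while Lrat fell (-0.47, 0.00138). The median difference of the stellate markers was 0.008. The summed intensity of 6 enterocyte markers, a cell type that also makes Cyp3a13, was 472 to 786 in STZ livers and 1164 to 1602 in control livers, where Fabp2 (-1.50, adjusted p = 1.56e-05 in limma) was the brightest and the only one to pass. The median difference of these 6 markers was 0.10. No marker was at 0, since an array gives every probe set a value. Their part in the Cyp3a differences was not tested. Pericentral hepatocyte genes, the zone in which Cyp3a11 is enriched, were higher for 3 and lower for 2 of 12 (median 0.04). Periportal genes were higher for 4 of 9 (median 0.17). These counts stand beside the same 5.09% higher and 4.04% lower over all genes. Acute phase and cytokine genes were higher for 2 of 16, with none lower, beside the 5.09% of all genes that were higher.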

How the data were processed

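The authors deposited log2 intensities of 35556 probe sets on 13 arrays. The submitters' processing notes name RMA and Affymetrix Expression Console 1.2, and no build or annotation version was found in the labels. RMA gives the arrays a common distribution, so an overall change in RNA amount would not be seen. Array medians lay within 0.09, and precision is limited by how many arrays there are.

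The platform annotation named the probe sets (1 symbol for 21789, several for 1621, none listed for 12146). The brightest probe set stood for each gene, which gave 19938 genes, with no filter on dim genes. Of the 21789 probe sets with 1 symbol, 21698 were found in RefSeq by Entrez identifier, and 0 had their symbol changed. The group difference (STZ minus control) was fitted in R 4.3.3 with limma 3.58.1 (lmFit, eBayes, 2-sided, Benjamini-Hochberg over all genes, threshold 0.05). Shared probe sets were tested in a fit to 21559 rows. Within-array differences between genes were tested by exact permutation, a test added after the data were seen.

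Promoters were compared by global alignment in Biopython 1.88, with end gaps left out of the identity. Motifs were chosen after the sequences were seen. The 7 genes, the gene lists and the tests were chosen with earlier results of these data known. Named genes were the 7 members, up to 4 passing genes with the largest difference in each list, genes of the regulator, electron donor and growth hormone lists, 3 most alike genes per member, and chromosomal neighbours. Hsd3b5 and Cyp2b9 are printed by liver because STZ replicate 5 stood apart in them. The labels call the arrays biological replicates and give no batch. Alternatives were other variance settings, array weights, a filter on dim genes, averaged probe sets, other scalings, a replicate block, the STZ label numbers 29 to 32 alone, a rank-sum test and leaving out each array. Label numbers of the groups do not overlap, so a batch following them cannot be told apart from treatment.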

Additional observations from a re-analysis of the deposited data

Results flagged for a closer look

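Of 16 groups of values examined (5 genes and 3 shared probe sets, each in STZ and control livers), 3 held a liver whose gap to the nearest other liver was large against the whole range of its group. Chance gives about 1 in 20 where groups are independent, which these are not: 2 of the 3 are the same liver in 2 probe sets that share 3 genes and whose centred values correlate at 0.997 over the 13 livers. STZ replicate 2 was at 12.11 for the probe set shared by Cyp3a41b, Cyp3a44 and Cyp3a41a and at 11.83 for the one shared also with Cyp3a11, above the other STZ livers in both. Control replicate 3 was at 12.79 for Cyp3a25, above the other control livers. The cause was not tested.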

How the results depend on the processing

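The differences of the 5 Cyp3a genes and the 3 shared probe sets kept their direction under every alternative run. The call of Cyp3a11 was lost with only the STZ label numbers 29 to 32 (0.17, adjusted p = 0.140), and leaving out 1 liver gave it 0.20 to 0.26 (adjusted p = 0.0220 to 0.0690). In the exact rank-sum test Cyp3a11 (0.23, adjusted p = 0.0628), Cyp3a13 (0.59, 0.0628) and Cyp3a16 (0.48, 0.262) did not pass, which left 2 of the 5 genes called, and 1088 of all genes were called there against 1819 in limma. Among genes above the median gene 4 members were called, because Cyp3a16 was not tested there. Leaving out 1 liver gave 4 to 5 members called, 1399 to 2168 genes called and 2 to 6 pairs of members called. With only the STZ label numbers 29 to 32, 5 pairs were called. That setting leaves out STZ replicate 5, whose removal widens pairs of Cyp3a13 and Cyp3a16 with Cyp3a11 and Cyp3a25 by construction. The added pairs are therefore a description and no further result. The replicate numbers of the titles did not pair the livers: the deviations of same-numbered livers correlated at -0.09 to 0.19, and 1 of 6 STZ livers was closest to the control of its own number. With the replicate block, 1256 genes were called, against 1480 for the same livers without it, and all 5 members passed in both. Cyp3a41a and Cyp3a59 have no value of their own, so the other settings were run on their shared probe sets. The cause of the lost calls was not tested.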
